A study of Mus musculus with 2 samples.

Results

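Mir143, Mir145a and Mir145b are the mouse genes of the smooth muscle microRNAs miR-143 and miR-145, and they are described here in the heart of aged mice. They were chosen by their GENCODE M21 symbols, which gave 3 of the 2202 microRNA genes counted. MicroRNA-seq libraries came from total RNA of heart tissue of female B6CASTF1/J mice, the first-generation hybrids of C57BL/6J and CAST/EiJ, at an age of 18 to 20 months. There were 2 libraries in 1 group, numbered by the labels as biological replicates 1 and 2, with separate tissue records and 1 donor record. No mutation, transgene or treatment is given for either, so there is no contrast between conditions, and each comparison between the libraries sets single libraries side by side. Nothing in the labels says whether the tissues came from separate animals, so the spread between the libraries may be technical.

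MicroRNAs are cut from hairpin precursors and, as short single strands, guide the silencing of messenger RNAs. The hairpins of miR-143 and miR-145 are processed from a shared primary transcript whose expression in smooth muscle depends on serum response factor and its coactivator myocardin. The pair is known for holding vascular smooth muscle cells in the contractile, non-dividing state. Regulators such as Klf4 and Klf5 are among its known targets. In the adult heart the pair has been studied in the walls of the coronary vessels.

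The annotation places only 2 of the 3 genes together. Mir143 (ENSMUSG00000065445.3) lies on the minus strand of mm10 chromosome 18 from 61649196 to 61649258, and Mir145a (ENSMUSG00000065592.2) on the same strand from 61647825 to 61647894, with 1301 bases between them. Mir143 is the upstream gene of the pair. Mir145b (ENSMUSG00000098366.1), also on the minus strand, spans 69022199 to 69022273, which is 7372940 bases from Mir143, so it is no member of the cluster. No other GENCODE M21 gene overlaps any of the 3 hairpins. The long noncoding RNA gene Carmn, known as the host of the cluster, ends 366 bases upstream of Mir143 in GENCODE M21, whereas its RefSeq span on GRCm38.p6, from 61645878 to 61665538, contains both hairpins. On the opposite strand, downstream of Mir145a, lies Bvht, a long noncoding RNA gene known from cardiac lineage commitment.

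**Figure D1:**
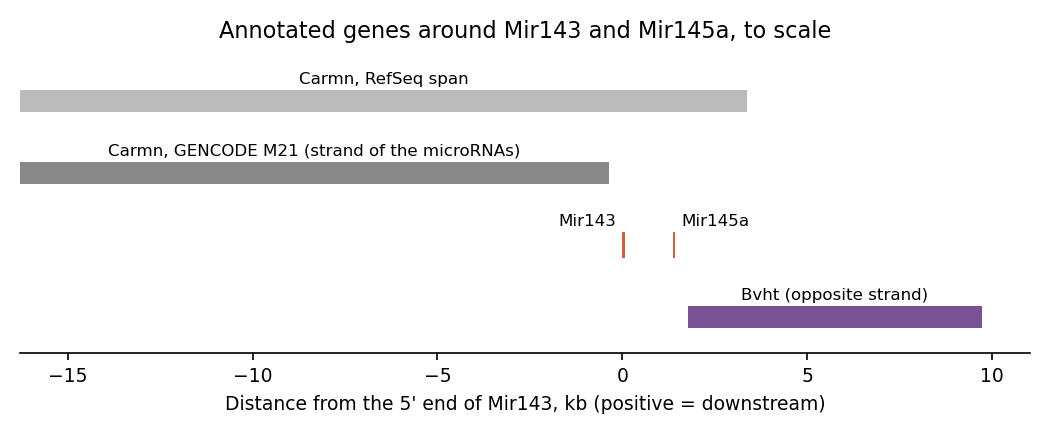
The map shows the annotated genes around Mir143 and Mir145a as bars, against the distance in kb from the 5' end of Mir143 (positive values are downstream). Both hairpins lie within the RefSeq span of Carmn, and in GENCODE M21 they fall in the gap between Carmn and Bvht.

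The hairpins of the 3 genes measure 63 bases for Mir143, 70 for Mir145a and 75 for Mir145b. The longest stretch that Mir145a has in common with any other counted microRNA gene is 17 bases, and that gene is Mir145b. Mir143 and Mir145a have no common stretch above 5 bases, and the longest that Mir143 shares with any microRNA gene is 11 bases. None of the 3 shares 20 bases or more with another counted gene, unlike 1076 of the 2202 genes, whose reads may map to several places and then enter no gene count.

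The libraries held 9362013 and 10549508 reads, of which 3383676 and 3676084 were sense reads of microRNA genes. Values below are these sense counts per 1000000 of the library's total (CPM). Intervals take in counting error alone and treat each read as an independent draw. Reads copied by PCR are not independent molecules, so the intervals may be too narrow. Reads mapping to more than 1 place made up 43.9% and 43.2% of the libraries, so a rank among genes holds for reads that map to 1 place. The heart muscle microRNA genes Mir208a (1588 and 1247 CPM in replicates 1 and 2) and Mir499 (3977 and 3567 CPM) were present in both libraries.

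Mir143 was the most abundant of the 3 genes in both libraries. It had 113655 counts in replicate 1 and 160808 in replicate 2, or 33589 CPM (Wilson 95% interval 33398 to 33782) and 43744 CPM (43536 to 43954). The mean was 38667 ± 7181 CPM (SD, n = 2), and Mir143 stood 10th of all genes in replicate 1 and 8th in replicate 2. In bulk tissue, fewer cells of a type and less RNA per cell cannot be told apart, so neither this level nor the others measures the amount of smooth muscle.

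Mir145a was lower than Mir143 in both libraries and differed far more between them. It had 6935 counts in replicate 1 and 26018 in replicate 2, or 2050 CPM (2002 to 2098) and 7078 CPM (6992 to 7164). The mean of 4564 ± 3555 CPM (SD, n = 2) therefore describes neither library, and the gene ranked 43rd in replicate 1 and 24th in replicate 2. The coefficient of variation over the libraries was 77.9% for Mir145a and 18.6% for Mir143.

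Mir145b was close to the limit of counting. It had 1 count in replicate 1, or 0.296 CPM (0.0522 to 1.67), and 16 counts in replicate 2, or 4.35 CPM (2.68 to 7.07). A count of 0 would allow up to 0.887 CPM in replicate 1 and 0.816 CPM in replicate 2, so the level was clear of that limit in replicate 2 alone.

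**Figure D2:**
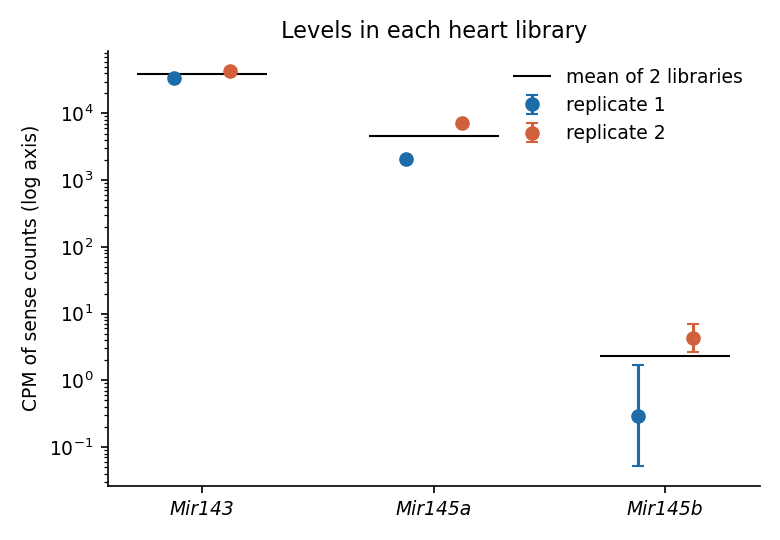
CPM of sense counts on a log axis for the 3 genes, with 1 point per library, the Wilson 95% interval of each point and the mean of both as a line. Intervals of Mir143 and Mir145a are smaller than the points, while Mir145a is further apart between the libraries (2050 and 7078 CPM) than Mir143 is (33589 and 43744 CPM).

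No read was counted on the antisense strand of any of the 3 genes in either library. For Mir143 in replicate 2, a count of 0 allows antisense reads of up to 0.00187% of its sense reads. For Mir145b that limit is 300% in replicate 1 and 18.75% in replicate 2, so its count of 0 says little. Antisense counts of 0 were the rule, being found in both libraries for 285 of the 316 genes with 10 counts or more in each library.

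In the order of mean levels, Mir143 was 9th and its neighbours were only partly resolved. Mir139 stood just above at 38762 ± 5766 CPM and Mir22, known from cardiac hypertrophy, just below at 32956 ± 26062 CPM, and the ranges of both overlapped that of Mir143. The next genes on either side did not overlap with it: Mir23a (60975 ± 10926 CPM) and Mirlet7g (60182 ± 3380 CPM) were above it in both libraries, and Mir26b (28864 ± 3735 CPM) and Mir99a (27063 ± 6291 CPM) below it. Mir145a was 30th by its mean, and its range of 2050 to 7078 CPM overlapped those of all 6 neighbours in the order, which were Mir93, Mir150, Mir155, Mir15b, Mir151 and Mir195a. Its rank is therefore not resolved beyond the spread between the libraries.

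The proportion of the cluster's counts that belonged to Mir145a was 5.75% (5.62 to 5.88) in replicate 1 and 13.9% (13.8 to 14.1) in replicate 2. Expressed as a ratio, Mir143 stood at 16.4 counts per count of Mir145a in replicate 1 (exact 95% limits 15.996 and 16.8) and at 6.18 in replicate 2 (6.10 and 6.26). Mir143 exceeded Mir145a in both libraries, but by an amount on which the libraries do not overlap. A mature microRNA is read over its whole length, so these counts need no division by length, and dividing them by the hairpin lengths changes the ratios only to 18.2 and 6.87. Reads of both arms of a hairpin enter 1 count, so the ratio is one of hairpins and not of the guide strands alone.

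For each count of Mir145b there were 6935 of Mir145a in replicate 1 (exact 95% limits 1244 and 273957). In replicate 2 there were 1626 (1001 and 2845). Those intervals overlap and rest on few Mir145b counts. Overlap is no test of a difference, and a change of this ratio between the libraries was not tested. The miR-145 counts of these hearts were thus nearly all assigned to the copy in the cluster. A read lying wholly inside the stretch of 17 bases common to both would fit either gene. No aligner is named, so how mismatched or clipped read ends were treated is not known. Counts of Mir145b may therefore include reads of Mir145a, which was not tested.

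Both genes of the cluster were higher in replicate 2. After scaling by TMM (a trimmed mean of log ratios, which aims to set the typical gene equal), Mir143 was 1.20-fold higher (exact 95% interval 1.19 to 1.20), a log2 ratio of 0.26. Mir145a was 3.17-fold higher (3.09 to 3.25), a log2 ratio of 1.66. A two-sided exact binomial test of each gene against counting noise, with Benjamini-Hochberg adjustment over 316 genes, called both, with adjusted p-values too small for double precision. Such a call is common here: 60.4% of the genes tested were called in either direction and 33.2% were called higher in replicate 2. It compares these libraries, not conditions.

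Mir145a differed between the libraries by more than most genes. Of the 316 genes tested, 28 had a larger absolute log2 ratio than Mir145a and 211 a larger one than Mir143, and the median absolute value was 0.45. Among the 95 genes that averaged at least 1000 counts, 6 had a larger absolute log2 ratio than Mir145a and 56 a larger one than Mir143. Of those 6, 1 was higher in replicate 2, namely Mir140, known from cartilage, at 2203 CPM in replicate 1 and 8673 CPM in replicate 2 (log2 ratio 1.85). Scaling by library totals moves the median log2 ratio of all genes from 0.05 to 0.18, and relative to the median Mir143 stood at 0.20 and Mir145a at 1.61, values that a change of scaling cannot alter.

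**Figure D3:**
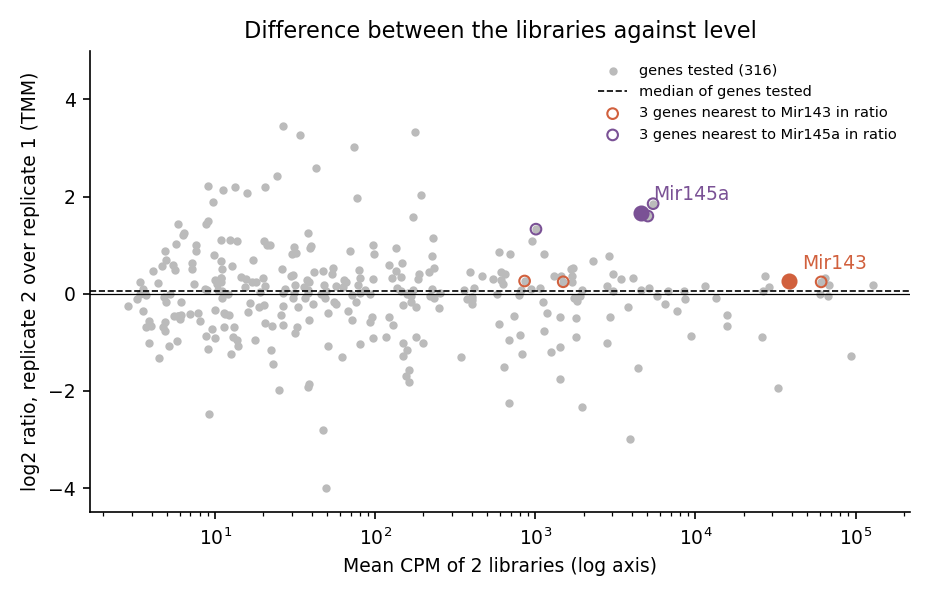
The log2 ratio of replicate 2 over replicate 1 after TMM scaling, against the mean CPM on a log axis, for the 316 genes tested. Mir145a (log2 ratio 1.66) lies near the upper edge of the genes at its level, while Mir143 (0.26) lies close to the median of all genes, drawn as a dashed line.

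Mir145b did not reach 10 counts in replicate 1 and was outside that test. With no minimum count, its 1 and 16 counts gave an adjusted p of 0.00351 over 708 genes (two-sided exact binomial test, Benjamini-Hochberg adjustment). In that fit 15.8% of the genes, or 112, were called higher in replicate 2, beside 105 of 316 genes with the minimum. The 15.8% is thus a share over many genes with few counts. For Mir145b the TMM-scaled ratio was 13.5, with an exact 95% interval of 2.10 to 567 that includes the 3.17-fold difference of Mir145a. The size of the difference was therefore not resolved for Mir145b.

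The genes most like the members across the libraries were found by the distance between log2 ratios, over the same 95 genes. With 2 libraries this measure rests on 1 number per gene, so it is a description only. Nearest to Mir143 were Mir324 (742 and 970 CPM in replicates 1 and 2), Mir28a (1302 and 1682 CPM) and Mir23a (53249 and 68701 CPM), whose log2 ratios differed from that of Mir143 by at most 0.0135. Mir28a and Mir23a share 20 bases or more with another gene, so their counts are uncertain. Nearest to Mir145a was Mir150, a lymphocyte microRNA gene, at 2345 and 7737 CPM (log2 ratio 1.60), followed by Mir140 and by Mir10b at 540 and 1477 CPM (log2 ratio 1.33). Mir145a was not among the genes nearest to Mir143, nor Mir143 among those nearest to Mir145a, which restates their log2 ratios of 0.26 and 1.66.

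Genes of other microRNA clusters also differed in how far they moved together. Consecutive microRNA genes on 1 strand with starts within 10 kb, both with at least 10 counts in each library, formed 67 neighbour pairs, and the ratio of the upstream to the downstream gene needs no scaling between libraries. For Mir143 over Mir145a the ratios of 16.4 in replicate 1 and 6.18 in replicate 2 give a log2 change of -1.41. A two-sided Fisher exact test of counts called it, with an adjusted p over the 67 pairs too small for double precision, but 59.7% of the pairs were called. The median absolute change was 0.52, and 8 pairs changed by more than Mir143 and Mir145a.

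The pairs with the largest changes mostly included a gene with few counts. They were Mir194-1 with Mir215 (log2 change 2.76), Mir92-2 with Mir363 (-2.45), Mir497 with Mir195a (2.35), Mir199a-2 with Mir214 (2.16) and Mir300 with Mir381 (1.87). Of these, Mir497 with Mir195a alone had 1000 counts or more for both genes in both libraries. That condition was met by 16 pairs, all of them called, with a median absolute change of 0.33. Among those 16, only Mir497 with Mir195a and Mir93 with Mir25 (log2 change 1.63) changed by more than Mir143 and Mir145a.

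The listed pairs of other clusters serve as a scale for the change of -1.41. Mir222 over Mir221, the cluster of proliferating vascular cells, was 0.0555 in replicate 1 and 0.0525 in replicate 2 (log2 change -0.08; Fisher exact test, adjusted p = 0.561). Mir23b over Mir27b was 8.26 and 11.8 (log2 change 0.52), and Mir23a over Mir27a was 28.9 and 35.2 (0.28). Mir144 over Mir451a, an erythroid pair, was 0.662 and 0.318 (-1.06). Mir15b over Mir16-2 (-0.64), Mir29b-1 over Mir29a (0.70) and Mir99b over Mirlet7e (-0.17) changed by less than Mir143 over Mir145a. Mir497 over Mir195a (2.35), also listed, changed by more. In the pairs of Mir23b, Mir23a, Mir15b and Mir29b-1, a gene shares 20 bases or more with another gene, so those ratios are uncertain. The order within the cluster was the same in both libraries for Mir143 and Mir145a, as it was for 61 of the 67 pairs.

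**Figure D4:**
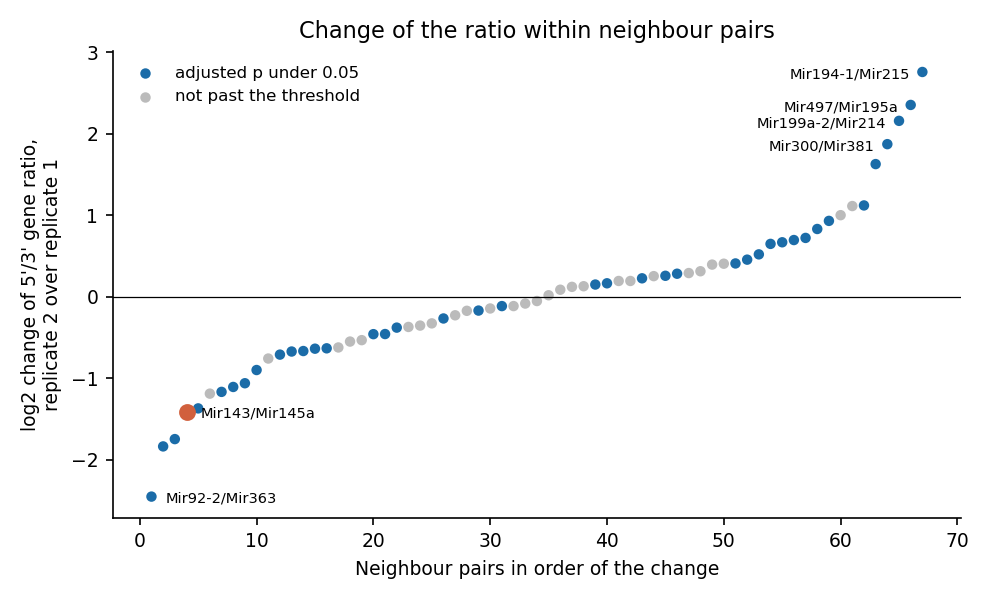
The log2 change of the ratio of the upstream (5') to the downstream (3') gene, replicate 2 over replicate 1, for the 67 neighbour pairs in order of that change. Blue points passed an adjusted p of 0.05 in the Fisher exact test, and Mir143/Mir145a (orange, -1.41) has the ninth largest absolute change.

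Other microRNA genes known from smooth muscle did not all go the way of the cluster. In a list of 9 genes tied to the contractile state, 6 could be tested, of which 3 were called higher in replicate 2 and 2 higher in replicate 1. The background for such calls was 33.2% and 27.2% of the 316 genes. The genes higher in replicate 2 were Mir23b (54441 and 73993 CPM in replicates 1 and 2), Mir322 (2499 and 3614 CPM) and Mir10a (1310 and 2030 CPM). Those higher in replicate 1 were Mir195a, an inhibitor of cell division, at 6824 and 940 CPM (log2 ratio -2.98), and Mir1a-2 (82.2 and 61.8 CPM). Mir204 had 126 and 149 CPM and was called only when library totals set the scale. Mir1a-1, Mir133a-1 and Mir133a-2, targets of the same serum response factor, stood under 8 CPM in both libraries. With Mir1a-2 and Mir23b they are the 5 of the 9 genes that share 20 bases or more with another gene, which makes their counts uncertain. Reads that map to several places enter no gene count, so these values may understate the genes. The median log2 ratio was 0.22, beside 0.05 over all genes tested.

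A list of 9 genes tied to dividing or migrating smooth muscle had 6 called higher in replicate 2 and 3 called higher in replicate 1. Over all 316 genes tested, 33.2% were called higher in replicate 2 and 27.2% higher in replicate 1. The median log2 ratio of the list was 0.54, the value of Mir146, beside 0.05 over all genes tested. Mir21a, a growth-promoting microRNA gene of muscle and stroma, had 2002 CPM in replicate 1 and 3756 in replicate 2. Mir221 had 1677 and 2894 CPM, and its neighbour Mir222 had 93.1 and 152 CPM. Mir146 (1330 and 2100 CPM), an inhibitor of inflammatory signalling, Mir31 (382 and 539 CPM) and Mir26a-1 (4.14 and 49.2 CPM) were also higher in replicate 2. Mir24-1, Mir24-2 and Mir26a-2 were higher in replicate 1, and like Mir146 and Mir26a-1 they share 20 bases or more with another gene. No gene of either list with 1000 counts or more on average had a log2 ratio as high as that of Mir145a. That follows from the result above, since only Mir140, in neither list, exceeded Mir145a at such counts. Mir26a-1, with fewer counts, had a higher log2 ratio (3.45).

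**Figure D5:**
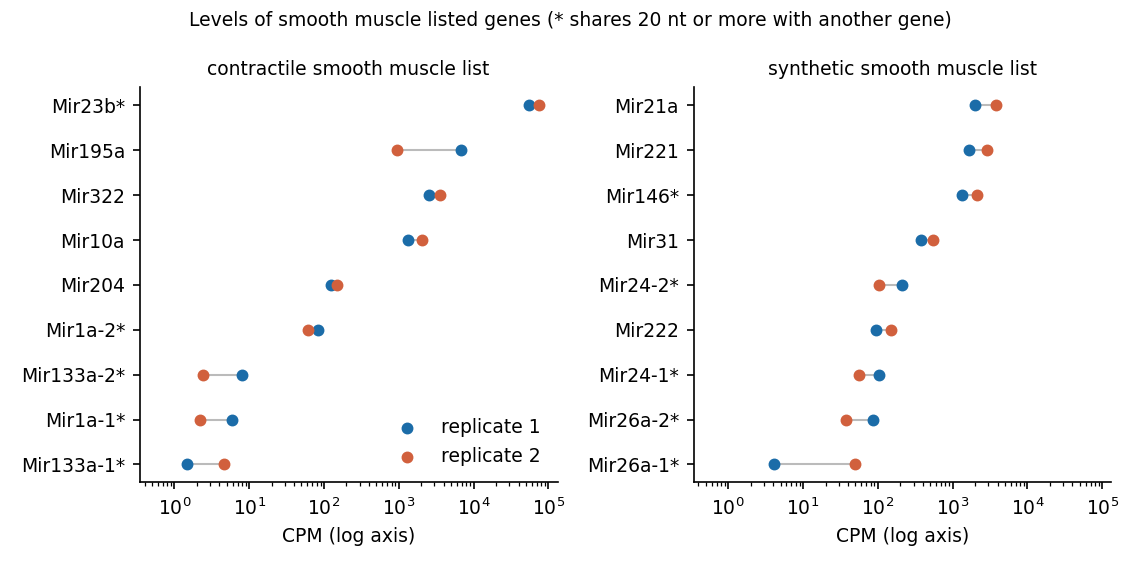
CPM on a log axis of the 9 genes tied to the contractile state and the 9 tied to the dividing or migrating state of smooth muscle, with 1 point per library and a line joining the libraries. Mir195a (6824 and 940 CPM) runs against Mir322, Mir10a and Mir23b, and genes with an asterisk share 20 bases or more with another gene.

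Markers of other cell types differed between the libraries too, and their calls stand beside 33.2% of all genes tested that were called higher in replicate 2 and 27.2% called higher in replicate 1. The 4 white blood cell genes had a summed level of 7315 CPM in replicate 1 and 14264 in replicate 2, and all 4 were called higher there, although Mir155 (4266 and 4882 CPM) is not called with DESeq2 size factors. The 13 epithelial genes summed to 288 and 1385 CPM, with 11 of the 12 tested called higher in replicate 2 and a median log2 ratio of 2.11. The summed levels of the other lists were lower in replicate 2. The endothelial sum, nearly all Mir126a, was 129044 and 57715 CPM, and the heart muscle sum 5624 and 4831 CPM with 3 of 3 genes called. The fibroblast and stroma sum was 3230 and 714 CPM, nearly all of it Mir214 (3217 and 695 CPM), the 1 gene called of 3 tested. Mir199b in that list had 6.80 and 12.8 CPM and is called higher in replicate 2 when library totals set the scale, and Mir199a-1 was at 0 in both libraries. The erythroid sum was 4182 and 1938 CPM with 3 of 3 called. The 4 genes of intestinal and kidney epithelium summed to 172 and 41.9 CPM. The part of these cell types in the difference of Mir145a was not tested.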

How the data were processed

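MicroRNA-seq was measured in 2 heart libraries of 1 group. Raw counts of reads were deposited by the authors for each microRNA gene, in 3 columns (either strand and each strand), as the values show. Per the readme text deposited with the libraries, the build was mm10 and the annotation GENCODE M21; no aligner or counter was named in any source used here. The 4 rows that are no genes (unmapped, 14.9% and 16.2% of reads; multimapping, 43.9% and 43.2%; featureless, 5.07% and 5.75%; ambiguous) stayed out of totals and tests.

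The strand column with the larger gene total was taken as sense. CPM used sense totals of 3383676 and 3676084 counts, so 3 counts equal 0.887 and 0.816 CPM. All 2202 identifiers matched GENCODE M21, and shared stretches were found by comparing its hairpin transcripts. Genes with 10 counts or more in each library were tested by an exact binomial test on TMM sizes (edgeR 4.0.16), and neighbour pairs by Fisher's exact test, both with Benjamini-Hochberg adjustment at 0.05. Both steps were tested on simulated data that held counting noise alone, the noise these tests assume. The simulation therefore says nothing of PCR copies or other spread between real libraries. DESeq2 1.42.0 gave alternative size factors. Other software was R 4.3.3, Python 3.11.15, pandas 2.3.3, numpy 2.4.6, scipy 1.17.1 and matplotlib 3.10.9.

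Members and lists were chosen with earlier results of these data known. The genes named are the members, the 3 genes on either side in mean level, the 3 nearest in log2 ratio at a mean of 1000 counts or more, the 5 pairs with the largest change, 9 listed pairs and the lists. Mir182 and Mir183 formed no tested pair. Mir93 with Mir25 was chosen after its values were seen. Alternatives were other scalings, minimum counts, distances, the either-strand column and thinning the deeper library.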

Additional observations from a re-analysis of the deposited data

How the results depend on the processing

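With 1 group of 2 libraries, leaving out 1 library gives its own level: 33589 to 43744 CPM for Mir143, 2050 to 7078 CPM for Mir145a, 0.296 to 4.35 CPM for Mir145b, and 6.18 to 16.4 for the ratio of Mir143 to Mir145a. Each mean therefore rests on both libraries, and those of Mir145a and Mir145b move by over 1.5 times without either. The mean of Mir143 became 51589 with either-strand counts, whose total is smaller because overlapping genes lose their reads as ambiguous, and 13692 per 1000000 of all reads. The ratio was 8.33 over summed counts and 12.5 per base of hairpin. Under 6 alternatives the log2 ratio ran from 0.20 to 0.38 for Mir143 and from 1.61 to 1.79 for Mir145a, both called each time. The change of the ratio between the libraries was -1.41 also with the deeper library thinned; the other alternatives leave the counts behind it as they are and do not test it. Genes called numbered 191 of 316, and 132 to 201 under the alternatives. At 100 counts 132 of 181 genes tested were called, and with no minimum count 201 of 708. The share of genes called therefore depends on the minimum count. Neighbour pairs called numbered 40 of 67, and 30 to 44 under 6 alternatives. The share of pairs called was 59.7%, but 40% of 100 pairs at a minimum of 1 count. At a minimum of 100 counts it was 85.7% of 35 pairs. Without pairs that share 20 bases or more, chosen after seeing the data, 23 of 39 pairs were called, since fewer were tested. No paired analysis was possible because there is only 1 group. Depth limits Mir145b alone among the members.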
